A study of Rattus norvegicus with 5 samples.

Results

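The genes described here encode leukocyte integrins, their activator kindlin-3 and ligands that they bind. They were measured in the dorsal horn of the rat lumbar spinal cord after nerve injury. The set was named gene by gene as Itgam, Itgax, Itgal, Itgad, Itgb2, Itga4, Itgb1, Fermt3, Icam1 and Vcam1, and its members are the rows of the counts table with exactly those symbols. Of the 10 listed genes, 9 were found among 17321 rows and all 9 had enough counts to be tested, out of 13478 tested genes. Itgax was not analysed here. The tissue came from Sprague Dawley rats on day 9 after surgery, with 3 libraries from CCI animals and 2 from SHAM animals. CCI commonly stands for chronic constriction injury, in which loose ligatures around a peripheral nerve produce lasting pain behaviour, and SHAM animals had surgery without it. The labels name no side of the injury, age of the animals or pooling. They also do not say that each library is a separate animal, so p-values here reflect only library-to-library spread, which may be technical.

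An integrin is a receptor made of an alpha chain and a beta chain that must pair to reach the cell surface. Itgb2 encodes the beta2 chain (CD18), which is shared by CD11b (Itgam), CD11c (Itgax), CD11a (Itgal) and CD11d (Itgad). CD11b with CD18 is complement receptor type 3, a marker of microglia and other myeloid cells, and CD11a with CD18 is LFA-1, used by lymphocytes and myeloid cells to hold on to other cells. Itga4 and Itgb1 together form VLA-4, which binds VCAM-1, while LFA-1 and CD11b with CD18 bind ICAM-1. Kindlin-3, the product of Fermt3, attaches to the beta chain inside blood cells and switches the integrin to its binding form.

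Promoter sequences were available for 7 of the 10 genes in the RefSeq table for the build GRCr8, each 300 bases long and running from 250 bases before to 50 bases after the annotated start site. Those of Itgam, Icam1 and Vcam1 are shown because the results below turn on these genes: a microglial alpha chain that rose, a ligand gene that rose, and a ligand gene that was not called. Capitals mark the letters GAGGAA, a core bound by ETS factors such as PU.1, and GGNNNTTCC, a form of the NF-kappaB motif, each searched on both strands. The letters GAGGAA occurred in 27.6% and GGNNNTTCC in 18.3% of 33465 promoters, so a match is common and describes the sequence only.
Itgam, chr1:192089342-192089641, plus strand: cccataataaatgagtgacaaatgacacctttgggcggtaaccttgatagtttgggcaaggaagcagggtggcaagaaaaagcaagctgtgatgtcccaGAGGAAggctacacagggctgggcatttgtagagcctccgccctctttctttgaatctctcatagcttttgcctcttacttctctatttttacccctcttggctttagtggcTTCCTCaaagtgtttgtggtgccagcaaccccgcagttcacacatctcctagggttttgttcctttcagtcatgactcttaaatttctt
Icam1, chr8:27829595-27829894, plus strand: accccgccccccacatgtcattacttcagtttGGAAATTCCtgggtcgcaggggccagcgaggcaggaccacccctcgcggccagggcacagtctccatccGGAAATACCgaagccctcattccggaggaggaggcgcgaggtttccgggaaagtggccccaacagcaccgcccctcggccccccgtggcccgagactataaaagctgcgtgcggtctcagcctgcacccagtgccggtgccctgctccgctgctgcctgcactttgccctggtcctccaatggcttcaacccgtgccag
Vcam1, chr2:206742734-206743033, minus strand: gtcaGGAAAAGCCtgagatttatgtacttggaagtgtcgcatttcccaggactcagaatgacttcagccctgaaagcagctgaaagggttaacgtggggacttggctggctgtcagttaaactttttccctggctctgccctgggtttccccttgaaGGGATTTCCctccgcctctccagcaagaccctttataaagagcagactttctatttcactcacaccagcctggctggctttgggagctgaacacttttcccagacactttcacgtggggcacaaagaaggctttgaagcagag
In these windows Itgam held GAGGAA 2 times and no GGNNNTTCC. Icam1 and Vcam1 each held GGNNNTTCC at 2 positions and no GAGGAA. Icam1, which was called, and Vcam1, which was not, thus held the same number of matches. In the same RefSeq assembly Itgam, Itgax and Itgad are next to each other on chromosome 1.

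The libraries held between 20053353 and 23673198 estimated counts. CCI 3 stood apart in that Rn28s, a ribosomal RNA row, held 15.2% of its counts, and 1.91% to 2.39% of the counts of the other libraries. Levels are given in CPM, which are counts scaled to library size with TMM factors, unless a per-length level is named. A gene was called when edgeR's quasi-likelihood test gave a Benjamini-Hochberg adjusted p of at most 0.05 over all tested genes together with a fold of at least 1.5, the thresholds named in the series' design. Of the integrin genes, 5 of 9 were called higher in CCI and none lower, against a background of 2.59% of all tested genes called higher and 0.26% called lower. The 5 were Itgam, Itgb2, Itgad, Fermt3 and Icam1. With 1 library left out, the number called was 7 without CCI 1. It was 5 without CCI 2 and 5 without CCI 3, both times with Itgal in place of Itgad. Fewer were called without SHAM 1 or without SHAM 2, each of which leaves a lone SHAM library. The genes called over the whole table, 384 with all libraries, numbered 763 without CCI 1, 61 without SHAM 1 and 78 without SHAM 2. The median log2 fold change was 1.51 over these 9 genes and 0.01 over all tested genes. In 8 of the 9 genes every CCI library stood above both SHAM libraries, which was so for 18.6% of all tested genes. Itgad passed the low-count filter only through its CCI libraries, and without it 4 of 8 genes were called, 7 of 8 had every CCI library above SHAM and the median was 1.37. A two-sided exact permutation test of a single gene over these 5 libraries cannot give a p below 0.1.

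**Figure D1:**
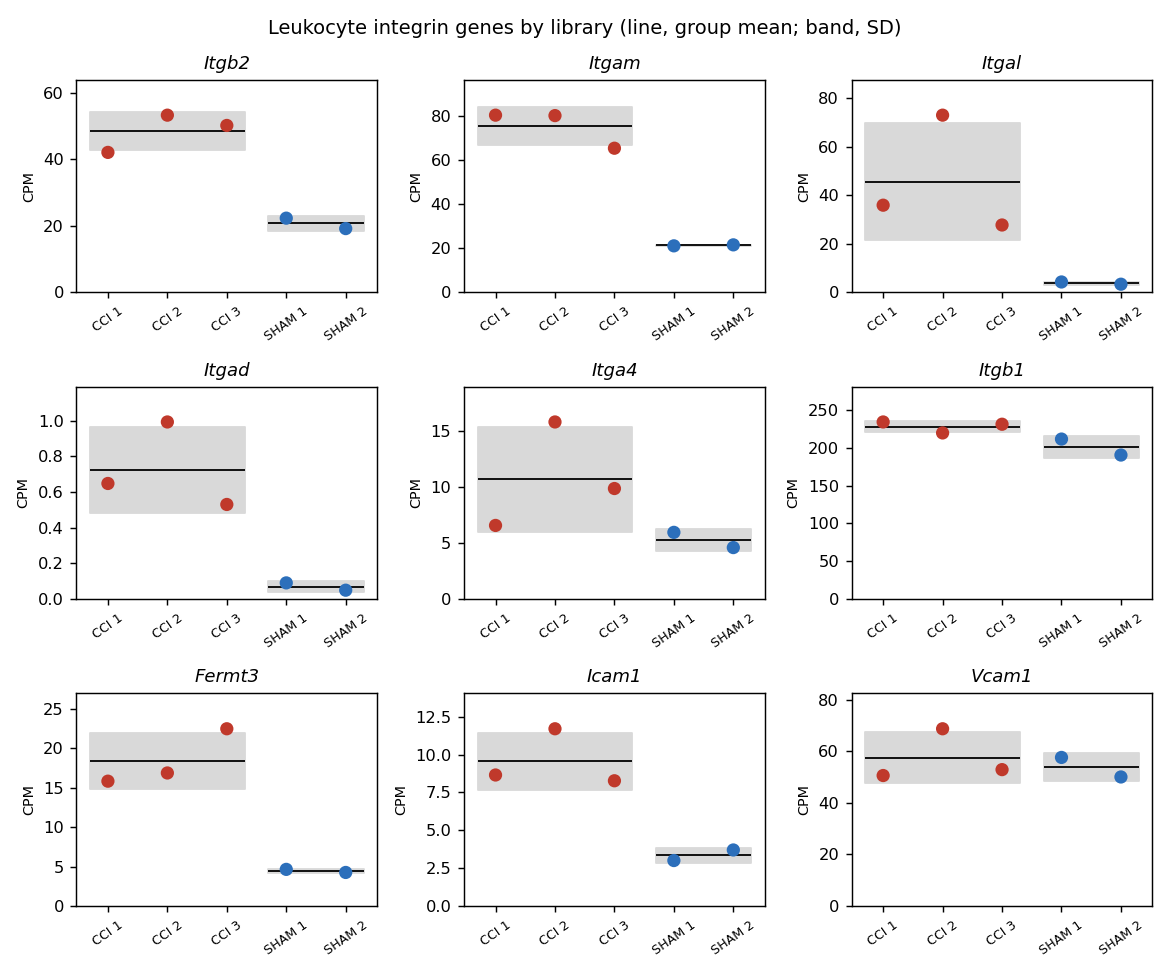
Level of each gene in CPM (y axis, starting at 0) in the 3 CCI libraries (red) and the 2 SHAM libraries (blue). Lines are group means and grey bands are ± SD. The groups were apart in every gene shown but Vcam1, and Itgb2, Itgal, Itgad, Itga4, Icam1 and Vcam1 were highest in CCI 2.

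**Figure D2:**
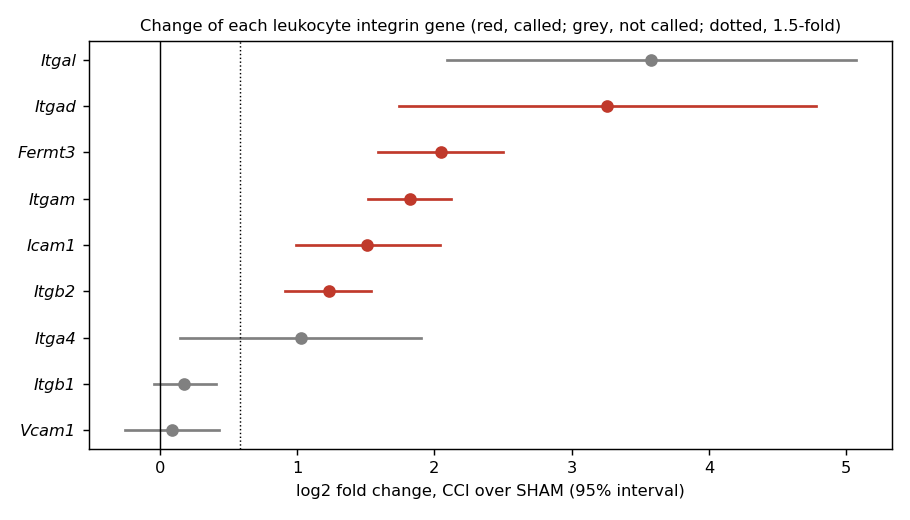
Log2 fold change of CCI over SHAM (x axis) with its 95% interval from edgeR's quasi-likelihood fit. Called genes are red, others grey, and the dotted line marks a 1.5-fold change. Itgal had the largest estimate (3.58) but a wide interval and was not called, while the intervals of Itgb1 and Vcam1 included 0.

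The shared beta2 chain rose. Itgb2 stood at 42.0, 53.2 and 50.1 CPM in CCI 1, CCI 2 and CCI 3, against 22.3 and 19.1 CPM in SHAM 1 and SHAM 2. All CCI libraries were higher than both SHAM libraries and the spread within each group was small. The log2 fold change was 1.23 (SE 0.14, 2.34-fold, edgeR adjusted p = 0.00227). Itgb2 had fractional estimated counts in the deposited table, so some of its reads may be shared with other rows and its level is uncertain to that extent. The call was lost without SHAM 2 (adjusted p = 0.0674, in a range of 3.68e-11 to 0.0674 over the alternatives).

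Among the alpha chains, Itgam rose with little spread between libraries. Its level was 80.4, 80.2 and 65.4 CPM in the CCI libraries, against 21.1 and 21.5 CPM in the SHAM libraries. The lowest CCI library, CCI 3, was still far above both SHAM libraries. Itgam had a log2 fold change of 1.82 (SE 0.13, 3.53-fold, edgeR adjusted p = 0.000286), which placed it at rank 12 of all tested genes by p. The call held under all 15 alternatives, with log2 fold changes between 1.77 and 1.91.

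Itgal, the alpha chain of LFA-1, had the largest estimated change of the set but did not pass the adjusted threshold. It stood at 36.0, 73.1 and 27.8 CPM in CCI 1, CCI 2 and CCI 3, against 4.27 and 3.35 CPM in SHAM 1 and SHAM 2. Every CCI library was far above SHAM, and CCI 2 was well above the other CCI libraries. Its log2 fold change was 3.58 (SE 0.57, 95% interval 2.09 to 5.07, edgeR adjusted p = 0.0569). Itgal was called in 7 of 15 alternatives. Dropping any single CCI library made it pass, with adjusted p-values of 0.0482 without CCI 1, 5.02e-06 without CCI 2 and 0.0456 without CCI 3. Dropping a SHAM library did not. The likelihood ratio test (adjusted p = 6.44e-09) and DESeq2 (7.02e-08) called it and limma-voom did not (0.137), in a range of 6.44e-09 to 0.377 over the alternatives.

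Itgad, which encodes the alpha chain CD11d found on macrophages, was close to the floor of detection. It had 14, 25 and 10 counts in the CCI libraries, against 2 and 1 counts in the SHAM libraries. Over the summed counts, 49 in CCI and 3 in SHAM, the ratio per scaled library was 10.5, with a 95% interval of 3.37 to 52.4 that covers counting error only. The gene passed the low-count filter through the CCI libraries, so a gene at this level could be tested only if it was high there. Its edgeR call (log2 fold change 3.26, adjusted p = 0.0369) was lost with DESeq2 (0.0545), on the deposited normalized table with either pseudocount, and without CCI 2, CCI 3, SHAM 1 or SHAM 2, in a range of 0.000467 to 0.352.

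Because CPM depends on gene length, the chains were compared with each other on the deposited per-length level, the authors' TPM scaled by TMM. In CCI 1, CCI 2 and CCI 3, Itgam made up 73.7%, 58.0% and 74.6% of the summed level of Itgam, Itgal and Itgad, against 86.0% and 89.0% in SHAM 1 and SHAM 2. Itgal made up 25.7%, 41.3% and 24.8% in the CCI libraries, against 13.6% and 10.8% in the SHAM libraries. Itgad was between 0.575% and 0.696% in CCI, against 0.354% and 0.197% in SHAM. The Itgam share was thus lower in every CCI library, by 18.7 percentage points on average (exact permutation p = 0.1, two-sided, the smallest these 5 libraries allow; 0.2 adjusted over the 2 ratio tests). The lower share went with a higher level of Itgam itself.

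The alpha chains also moved against their beta partner. Their summed per-length level was 2.36, 2.36 and 1.59 times that of Itgb2 in CCI 1 to 3, against 0.999 and 1.15 times in SHAM 1 and 2. The groups did not overlap, but another of the 10 ways to divide the libraries gave a difference at least as large, so the two-sided exact permutation p was 0.2, also after adjustment. Itgax, the remaining partner of Itgb2, is missing from these sums, and the fractional counts of Itgb2 touch the same ratio.

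**Figure D3:**
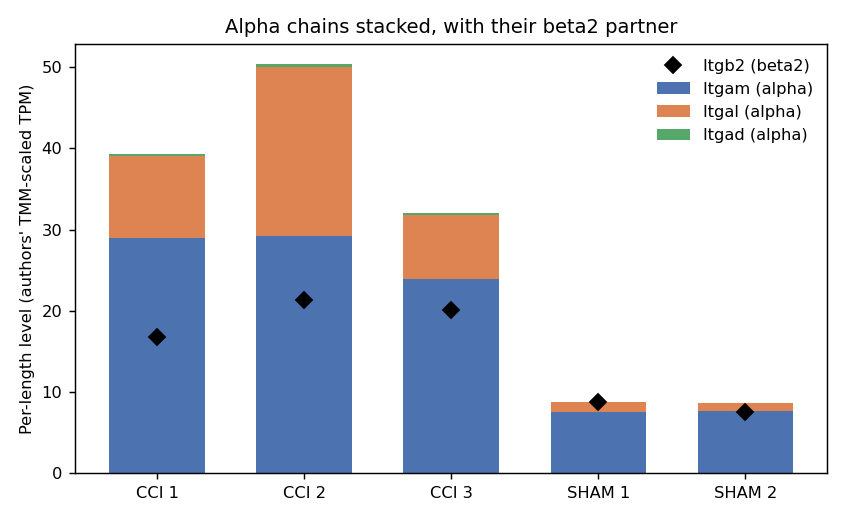
Stacked bars give the per-length level (y axis, the authors' TMM-scaled TPM) of Itgam, Itgal and Itgad in each library, and diamonds give Itgb2, their shared beta chain. The diamonds lie inside the bars in the 3 CCI libraries and near the top of the bars in the 2 SHAM libraries.

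Fermt3, which encodes the integrin activator of blood cells, rose. It stood at 15.8, 16.9 and 22.5 CPM in CCI 1, CCI 2 and CCI 3, against 4.64 and 4.25 CPM in SHAM 1 and SHAM 2. Unlike most of the other genes it was highest in CCI 3 rather than CCI 2. This was a log2 fold change of 2.05 (SE 0.20, 4.13-fold, edgeR adjusted p = 0.00122), and Fermt3 was called in all 15 alternatives. Its estimated counts were fractional, so it shares the uncertainty of Itgb2.

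The VLA-4 chains were not called. Itga4 stood at 6.57, 15.8 and 9.86 CPM in CCI 1, CCI 2 and CCI 3, against 5.95 and 4.60 CPM in SHAM 1 and SHAM 2. CCI 1 lay just above SHAM and CCI 2 far above it, so the groups were apart by a narrow margin. Itga4 had a log2 fold change of 1.03 (SE 0.37, 95% interval 0.15 to 1.90, edgeR adjusted p = 0.237), and it was 0.64 without CCI 2. Without CCI 1, Itga4 was called, with a log2 fold change of 1.29 (adjusted p = 0.0258, in a range of 0.0258 to 0.648).

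Itgb1, the beta1 chain that many cell types use with many alpha chains, had 234, 220 and 231 CPM in CCI, against 212 and 190 CPM in SHAM. The difference was small beside those of the beta2 family, at a log2 fold change of 0.18 (SE 0.10, 95% interval -0.04 to 0.41, edgeR adjusted p = 0.409). The interval lay below a 1.5-fold change. The per-length ratio of Itga4 to Itgb1 was 0.0276, 0.0709 and 0.0421 in CCI 1 to 3, against 0.0277 and 0.0238 in SHAM 1 and 2, so CCI 1 was at the SHAM level.

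Of the ligand genes in the set, Icam1 rose and Vcam1 was not called. Icam1, which encodes a ligand of the beta2 integrins, stood at 8.65, 11.7 and 8.27 CPM in CCI, against 3.0 and 3.70 CPM in SHAM. The groups were clearly apart. The log2 fold change was 1.51 (SE 0.23, 2.86-fold, edgeR adjusted p = 0.00959). The call was lost without SHAM 1 (adjusted p = 0.188) and without SHAM 2 (0.089), in a range of 7.72e-06 to 0.188, and was kept under the other 13 alternatives.

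Vcam1, which encodes the ligand of VLA-4, stood at 50.6, 68.7 and 52.9 CPM in CCI, against 57.6 and 50.02 CPM in SHAM. Only CCI 2 was above both SHAM libraries and the other 2 CCI libraries lay within the SHAM range. The log2 fold change was 0.09 (SE 0.15, 95% interval -0.25 to 0.43, edgeR adjusted p = 0.787), and its sign turned when CCI 2 was left out (-0.06) or SHAM 2 was left out (-0.01). The intervals of Icam1 (0.99 to 2.04) and Vcam1 did not overlap; the difference between the genes was not itself tested.

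On the per-length scale the order of levels also differed between the groups. In CCI it ran Itgb1 (77.4), Itgam (27.3), Vcam1 (24.2), Itgb2 (19.4), Itgal (12.9), Fermt3 (9.45), Icam1 (4.72), Itga4 (3.60) and Itgad (0.255). In SHAM it ran Itgb1 (66.9), Vcam1 (22.3), Itgb2 (8.13), Itgam (7.60), Fermt3 (2.24), Itga4 (1.73), Icam1 (1.62), Itgal (1.06) and Itgad (0.024). Itgal was the fifth in CCI and the eighth in SHAM. In CCI the neighbours from Itgam down to Fermt3 overlapped pair by pair, as did Icam1 and Itga4. In SHAM the libraries of Itgb2 and Itgam overlapped, and so did those of Itga4 and Icam1.

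Cell type markers were set beside these levels, since in bulk tissue fewer cells of a type and less RNA per cell cannot be told apart. The 9 microglia markers in the table summed to 681, 769 and 699 CPM in CCI 1 to 3, against 328 and 363 CPM in SHAM 1 and 2, and 5 of them were called higher. Among these, P2ry12, a purinergic receptor of microglia, stood at 28.6, 28.5 and 31.7 CPM in CCI, against 14.0 and 14.5 CPM in SHAM. The microglia sum and Itgam were thus both higher in every CCI library, and the part of cell number in the result was not tested. Not every microglia marker followed the sum: Tmem119, a microglial membrane protein gene, stood at 13.5, 25.8 and 25.6 CPM in CCI, against 11.4 and 25.5 CPM in SHAM, and Olfml3 in CCI 1 (7.13 CPM) lay within the SHAM range (6.73 and 7.45 CPM). Endothelial markers come from the cells that carry ICAM-1 and VCAM-1 on vessel walls. They summed to 496, 601 and 515 CPM in CCI, against 517 and 534 CPM in SHAM, with no member of 10 called. Single members moved both ways. Cdh5 (8.79, 17.4 and 18.6 CPM in CCI, against 6.23 and 8.15 in SHAM) and Pecam1 were higher in every CCI library. Slco1c1 was lower in every CCI library (83.3, 96.8 and 90.3 CPM, against 122 and 114 in SHAM).

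Lymphocyte markers separated CCI 2 from the other libraries. The 11 T and NK cell markers summed to 4.91, 21.5 and 7.74 CPM in CCI 1, CCI 2 and CCI 3, against 4.32 and 4.05 CPM in SHAM 1 and SHAM 2. In CCI 1 and in SHAM most of this sum came from Cd2 and Lck. Cd2 stood at 2.87 CPM in CCI 1, against 2.86 and 2.05 CPM in SHAM, and Lck at 1.48 CPM, against 1.23 and 1.35 CPM. Cd3e, a chain of the T cell receptor complex, had 0, 56 and 9 counts in the CCI libraries, against 0 and 0 counts in the SHAM libraries. CCI 2 was thus the library with the most T cell transcripts as well as the highest Itgal, Itga4, Itgad, Itgb2, Icam1 and Vcam1, and the part of T cells in these levels was not tested. In CCI 1, where Cd3e had no count and the T and NK sum was near that of SHAM, Itgal was at 36.0 CPM, against 4.27 and 3.35 CPM in SHAM. For Itga4 in the same library the level was 6.57 CPM, against 5.95 and 4.60 CPM in SHAM. Of the neutrophil markers, whose cells also carry beta2 integrins, S100a8 had at most 4 counts and Mpo at most 4 counts in any library. The sum of the 10 neutrophil markers, 17.4, 19.3 and 16.2 CPM in CCI against 4.77 and 3.90 CPM in SHAM, came almost wholly from Csf3r, the G-CSF receptor gene, at 16.7, 17.7 and 14.6 CPM in CCI, against 3.86 and 3.60 CPM in SHAM.

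The remaining marker lists differed in which libraries were high. The 5 border macrophage markers summed to 23.0, 44.8 and 56.3 CPM in CCI, against 27.0 and 30.1 CPM in SHAM, with none called. The 6 monocyte markers summed to 187, 252 and 300 CPM in CCI, against 136 and 147 CPM in SHAM, with Plac8 called. The sum was higher in every CCI library. Most of the summed level, though not all of its rise, came from 2 uncalled genes. These were Vcan (85.1, 84.2 and 100 CPM in CCI, against 85.1 and 86.2 in SHAM) and Fn1 (62.3, 94.2 and 152, against 41.6 and 52.1). Vcan was above both SHAM libraries only in CCI 3. Plac8 (30.45, 55.82 and 33.36 CPM in CCI, against 0.773 and 1.40 CPM in SHAM), Fn1 and F10 were higher in every CCI library. Cd14 in CCI 1 (7.91 CPM) lay within the SHAM range (8.09 and 6.80 CPM). Ly6c had 0, 57 and 4 counts in CCI, against 1 and 0 in SHAM. Of the 5 B cell markers only Cd22 was called (8.15, 10.6 and 6.36 CPM in CCI, against 1.55 and 1.10 CPM in SHAM). Fibroblast markers summed to 180, 879 and 739 CPM in CCI, against 192 and 222 CPM in SHAM, and Schwann cell markers to 321, 498 and 907 CPM in CCI, against 323 and 330 CPM in SHAM. The fibroblast and Schwann cell sums were thus high in CCI 2 and CCI 3 and near SHAM in CCI 1, and their part in the levels of the integrin genes was not tested. The 8 astrocyte markers summed to 10500, 8820 and 8260 CPM in CCI, against 7080 and 7070 CPM in SHAM, with 1 called higher. The 7 oligodendrocyte markers summed to 31800, 27400 and 26300 CPM in CCI, against 37500 and 36900 CPM in SHAM, with none called. The astrocyte sum was thus higher and the oligodendrocyte sum lower in every CCI library. The called astrocyte marker was Gfap, at 5110, 3971 and 3493 CPM in CCI, against 2100 and 1982 CPM in SHAM. The astrocyte markers did not move together. Aqp4 and Slc1a3 were also higher in every CCI library. Aldoc (1861, 1595 and 1255 CPM in CCI, against 1955 and 2031 CPM in SHAM) and Aldh1l1 were lower in every CCI library. Markers of dorsal horn neurons summed to 1230, 1210 and 1330 CPM in CCI, against 1220 and 1260 CPM in SHAM, with none called. Their members moved both ways. Pdyn (37.6, 49.5 and 34.1 CPM in CCI, against 15.2 and 25.5 CPM in SHAM), Tac1 and Gad1 were higher in every CCI library. Slc32a1 (121, 110 and 106 CPM in CCI, against 123 and 135 CPM in SHAM) and Rbfox3 were lower in every CCI library.

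**Figure D4:**
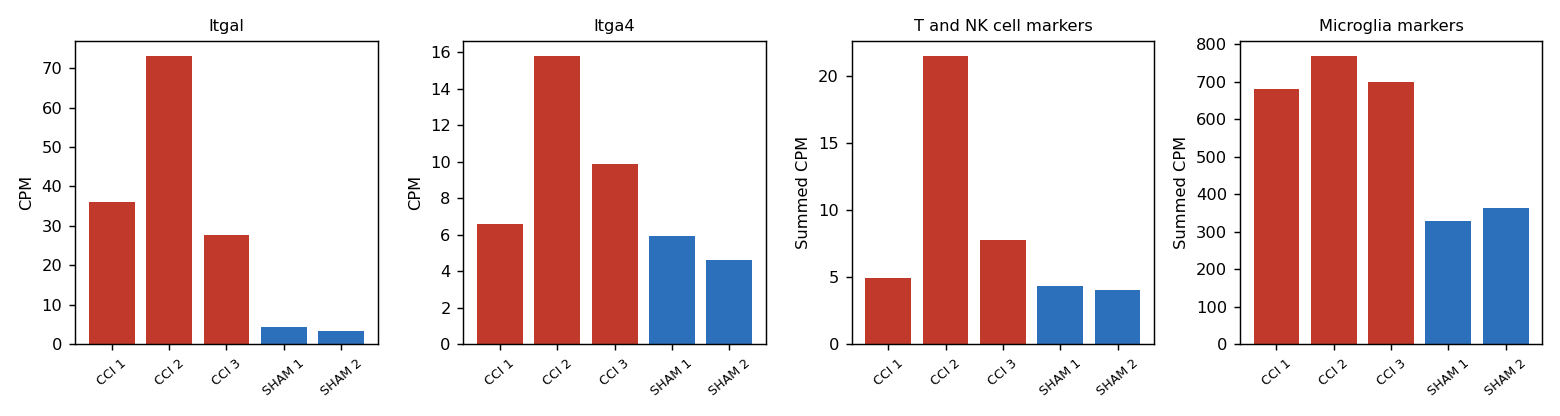
CPM of Itgal and Itga4 and the summed CPM of the T and NK cell and microglia marker lists (y axes, starting at 0) in CCI (red) and SHAM (blue) libraries. T and NK markers were high in CCI 2 (21.5 CPM) and near SHAM in CCI 1 (4.91 CPM). Itgal was above SHAM in all 3 CCI libraries, and the part of T cells in its level was not tested.

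Integrin chains outside the leukocyte set were read against the same background, 2.59% of all tested genes called higher and 0.26% called lower. Of 7 tested alpha chains 1 rose and none fell, with a median log2 fold change of 0.41, against 0.01 over all tested genes. It was Itga5, the alpha chain of the fibronectin receptor, at 4.91, 7.42 and 5.78 CPM in CCI, against 2.59 and 2.50 CPM in SHAM (log2 fold change 1.25, SE 0.26, edgeR adjusted p = 0.0364). The most abundant uncalled alpha chains were Itga6, a laminin receptor chain (0.43, adjusted p = 0.0657), and Itga7, another laminin receptor chain (0.04, adjusted p = 0.948). Of 5 tested beta chains 1 rose and none fell. The beta chains had the same median log2 fold change as the leukocyte set, 1.51. The gene that rose was Itgb3, the chain of the vitronectin receptor, at 4.67, 5.32 and 3.39 CPM in CCI, against 1.86 and 1.20 CPM in SHAM (log2 fold change 1.54, adjusted p = 0.0409). Itgb5 (0.12, adjusted p = 0.644) and Itgb8, a chain that activates latent TGF-beta (-0.44, adjusted p = 0.0531), were the most abundant beta chains not called. Itgb4, a chain of a laminin receptor (1.69, adjusted p = 0.252), and Itgb7, a chain of lymphocyte homing receptors (1.51, adjusted p = 0.262), were not called either, although every CCI library was above SHAM in both, and they were chosen after their values were seen. Itgb8 was lower in each CCI library, at 146, 143 and 144 CPM, against 209 and 184 CPM in SHAM.

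Of 27 tested genes of integrin activation and adaptors 7 rose and none fell, against 2.59% of all tested genes called higher, with a median log2 fold change of 0.39. Over all 5 related lists 11 of 63 tested genes were called, and the number was 18 without CCI 1 and 4 without either SHAM 1 or SHAM 2. Vav1, an exchange factor for small GTPases in blood cells, stood at 10.97, 14.05 and 12.94 CPM in CCI, against 2.23 and 2.60 CPM in SHAM (log2 fold change 2.39, SE 0.20, edgeR adjusted p = 6e-04). The Src family kinase genes Fgr and Lyn, which signal below beta2 integrins, rose, with log2 fold changes of 2.13 for Fgr (edgeR adjusted p = 0.00146) and 1.57 for Lyn (0.00163), where Lyn had fractional counts. Also called were the adaptor genes Fyb1 (2.82) and Skap2 (0.71) and the GTPase gene Rac2 (2.87), which lie outside the rule for named genes and were chosen after their values were seen.

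The other 20 tested genes of this list were not called. Tln1, the talin that binds integrin beta chains together with kindlins, stood at 259, 291 and 240 CPM in CCI, against 196 and 183 CPM in SHAM (log2 fold change 0.47, edgeR adjusted p = 0.068). Fermt2, the kindlin gene of non-blood cells, stood at 176, 161 and 172 CPM in CCI, against 197 and 198 CPM in SHAM (-0.22, adjusted p = 0.31). The kindlin paralogues Fermt3 and Fermt2 thus had estimates of opposite sign, of which that of Fermt3 was called. Tln1 and Fermt2 lie outside the rule for named genes and were chosen after their values were seen.

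Of 13 other tested ligands of leukocyte integrins 1 rose and none fell, against 2.59% of all tested genes called higher, with a median log2 fold change of 0.14. It was C3, whose cleavage product iC3b is bound by CD11b with CD18, at 399, 454 and 404 CPM in CCI, against 70.8 and 63.6 CPM in SHAM (log2 fold change 2.64, edgeR adjusted p = 3.82e-05). The most abundant uncalled ligands were Thy1, a neuronal surface protein that binds CD11b with CD18 (-0.23, adjusted p = 0.439), and Spp1, osteopontin (0.11, adjusted p = 0.932). Of 11 tested selectins and trafficking molecules 1 rose and none fell, against the same 2.59%, with a median of 0.01. It was the hyaluronan receptor gene Cd44, at 60.9, 56.0 and 50.9 CPM in CCI, against 28.2 and 24.8 CPM in SHAM (log2 fold change 1.08, adjusted p = 0.00236). Glg1 (-0.03, adjusted p = 0.898), an E-selectin ligand, and Cd99l2 (-0.20, adjusted p = 0.344) were the most abundant uncalled genes of that list.

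**Figure D5:**
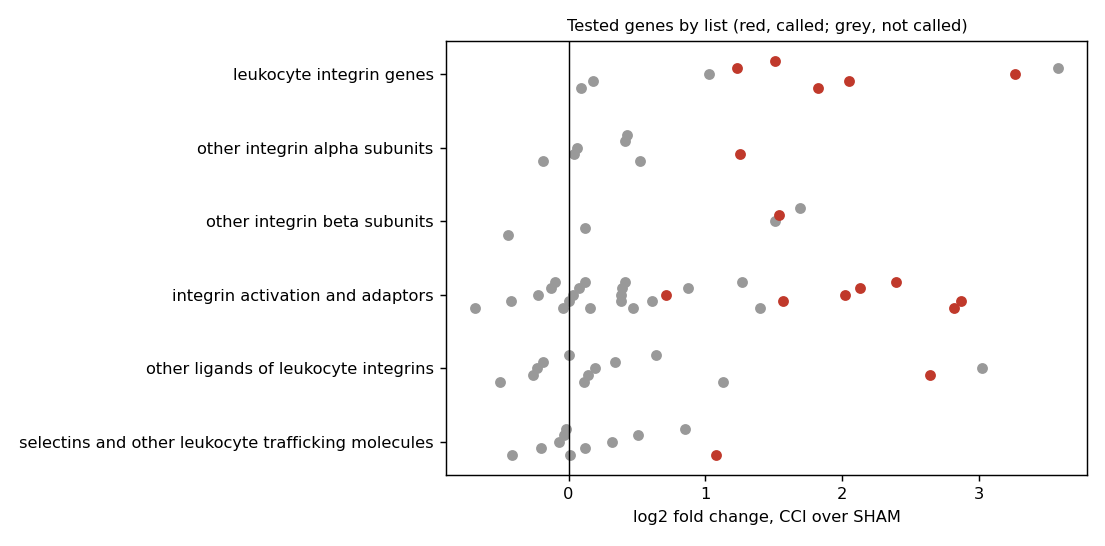
Log2 fold change of CCI over SHAM (x axis) for each tested gene of the leukocyte integrin set and of 5 related lists, with called genes in red and others in grey. Of the leukocyte integrin genes 5 of 9 were called, and of the activation and adaptor genes 7 of 27.

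The genes whose profile over the 5 libraries was nearest to that of Itgam and of Itgb2 were found by the root mean square distance between centred log2(CPM + 1) values, among 12759 genes with a mean of at least 1 CPM. Nearest to Itgam were Csf3r, the G-CSF receptor gene (distance 0.072), Rab32 (0.075), Fgd2 (0.102), Ifi30, a lysosomal thiol reductase gene (0.109), and Fgr (0.115). Nearest to Itgb2 were Cd53, a tetraspanin gene of leukocytes (0.037), Pla2g4a, cytosolic phospholipase A2 (0.070), Tlr4, the endotoxin receptor gene (0.076), LOC685157 (0.079) and Gpr31 (0.086). For Cd53 the mean was 64.5 ± 9.06 CPM over the 3 CCI libraries and 28.1 ± 2.36 CPM over the 2 SHAM libraries (each with its SD). The measure rests on 5 libraries in 2 groups and is a description only.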

How the data were processed

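Lumbar dorsal horn RNA was sequenced on an Illumina HiSeq machine, as the labels state. The authors deposited estimated counts per gene, quantified by kallisto 0.44.0 with the build rn6 according to the submitters' processing notes, and a normalized table named TPM that was scaled by TMM per the series' design. That deposited table is treated as a signal, because its library totals vary. No annotation, strand setting or filter is stated in the sources used here, so reads of overlapping or near-identical genes may be shared.

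Estimated counts were rounded, filtered with filterByExpr (minimum count 10), TMM-scaled and fitted with edgeR 4.0.16 in R 4.3.3 (robust glmQLFit and a two-sided glmQLFTest). P-values were adjusted by Benjamini-Hochberg across every tested gene, and the SE is the log2 fold change over the root of F. Groups come from the treatment label; replicate numbers were given in accession order and are names only. Scripts were tested on simulated data. The alternatives comprised edgeR's likelihood ratio test, DESeq2 1.42.0, voom in limma 3.58.1, other scalings and filters, the normalized table on the log2 scale (pseudocounts 0.5 and 0.1, levels of at least 0.1 in 2 libraries), and leaving out each library. Libraries of a group differed by more than sampling noise.

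Members and lists were chosen with earlier results of these data known. The rule for naming genes took all members, up to 4 called genes per list by p, the 2 most abundant uncalled genes where fewer than 2 were called, and the 5 nearest profiles. A called adaptor-list gene that this rule names is not reported here. Sequences are from RefSeq (GRCr8); no coordinates of the files' build were used. Figures were drawn with matplotlib 3.10.9.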

Additional observations from a re-analysis of the deposited data

How the results depend on the processing

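Over 15 alternatives Itgam and Fermt3 kept their calls in all, Itgb2 in 14 and Icam1 in 13, while Itgb1 and Vcam1 were called in none. The number of called integrin genes, 5 with all libraries, ran from 2 to 7 when a library was left out: Itgam, Itgb2 and Fermt3 were called without SHAM 1, and Itgam and Fermt3 without SHAM 2, each time with a lone SHAM library assumed to vary like the CCI group. It was 6 with the likelihood ratio test, 5 with DESeq2, limma-voom, each other scaling and the normalized table, and 4 with a filter of 1 CPM in 2 libraries, which leaves out Itgad. Over all genes 384 were called, against 646 by likelihood ratio and 614 by DESeq2, and 61 to 763 with a library left out. Of the related genes 11 were called, and 4 to 18 with a library left out. The log2 fold change of Vcam1 turned negative without CCI 2 (-0.06) and without SHAM 2 (-0.01), and was at most 0.20 with a library left out. The lower Itgam share in CCI held when each library was left out (-21.7 to -13.4 percentage points) and in CPM (-21.1). The higher ratio of alpha chains to Itgb2 also held. Its CCI mean exceeded its SHAM mean by 1.03 with all libraries, by 0.9 to 1.29 with a library left out, and by 1.30 in CPM. The cause of these shifts was not tested. With 3 against 2 libraries the depth of Itgad, at most 25 counts in a library, limits what can be said of it.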
